A study of Mus musculus with 22 samples.

Results

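The genes described here act in the piRNA pathway and in germ granules: Piwil2, Mov10l1, Asz1, Fkbp6, Mael, Tdrd9, Tdrd1, Tdrd5, Tdrd6 and Tex101. They were taken as all non-control probes that carried 1 of these 10 names in the scanner files, which gave 14 probes of 41174 and 10 genes of 28104, on 22 arrays. Mouse primordial germ cells (PGCs), the embryonic precursors of eggs and sperm, were profiled directly from embryos at E11.5 and while they were cultured towards embryonic germ cells (EGCs), a pluripotent line that resembles embryonic stem cells (ESCs). Each condition had 1 Agilent 1-colour array, so no condition was replicated, and the number of arrays limits the precision of each value.

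The culture arrays came from SSEA-1 positive cells at day 1 with bFGF, at days 2, 3 and 6 with bFGF, 2i and A83-01, and at day 10, whose label names no addition. The name 2i stands for PD325901 at 1 µM, which inhibits the kinase MEK, with CHIR99021 at 3 µM, which inhibits GSK3, and A83-01 at 250 nM inhibits activin and TGF-beta receptors. Further day 2 cultures held bFGF alone, or bFGF with 1 of PD325901, CHIR99021, A83-01 and 4-hydroxytamoxifen (4OHT, 100 nM), or bFGF with all of 2i, A83-01 and 4OHT. Per the labels 4OHT served to switch on AKT. An ESC line and an EGC line, also sorted on SSEA-1, stood beside them. EBRTcH3 ESCs were profiled as the parental line and, sorted on GFP, with forced expression of Prdm14, Vasa, Nanos2, Nanos3 or Dnd, or at day 2 of an EF1a construct with GFP alone or with Blimp-1. The shared medium held knockout serum replacement and LIF. How many embryos were pooled, how many clones stood behind an EBRTcH3 array, and which AKT transgene the PGCs carried are not given in the sources used here.

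PIWI proteins bind short piRNAs and silence transposons in germ cells. Their precursors are unwound and cut at the surface of mitochondria, and the products are loaded and amplified in germ granules, also called nuage, where Tudor domain proteins hold PIWI proteins by their methylated arginines. Fetal male germ cells are known for building this machinery after they have reached the gonad. Piwil2 (MILI) is a PIWI protein, Mov10l1 is an RNA helicase that acts on piRNA precursors, and Asz1 (GASZ) is a mitochondrial scaffold of the granule. Fkbp6 is a co-chaperone of HSP90 in piRNA loading, and Mael is a nuage protein needed for transposon silencing. Tdrd9 is a Tudor domain helicase that works with the PIWI protein MIWI2, while Tdrd1, Tdrd5 and Tdrd6 are Tudor scaffolds. Tex101 is a surface glycoprotein of germ cells with no known step in piRNA making.

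A probe is a stretch of 60 bases on the array, and its place in the transcript sets what it can see. The Asz1 probe and 1 probe each of Fkbp6 and Mov10l1 join 2 exons, so they match spliced transcripts and no unbroken stretch of the genome. They are shown with the 2 Tdrd5 probes, because the differences below rest on them or on the other probe of the same gene. Coordinates are those of the scanner files on mm9, and a range longer than 60 bases spans an intron.
Asz1, chr6:18005508-18021991, minus strand: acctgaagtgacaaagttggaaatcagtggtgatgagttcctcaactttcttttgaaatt
Fkbp6, chr5:135813560-135815389, minus strand: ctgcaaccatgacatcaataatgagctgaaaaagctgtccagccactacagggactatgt
Mov10l1, chr15:88816129-88818875, plus strand: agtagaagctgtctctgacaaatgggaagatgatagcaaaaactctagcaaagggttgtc
Mov10l1, chr15:88884717-88884776, plus strand: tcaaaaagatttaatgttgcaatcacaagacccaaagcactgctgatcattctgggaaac
Tdrd5, chr1:158207541-158207600, minus strand: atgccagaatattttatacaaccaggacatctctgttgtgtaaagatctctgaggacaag
Tdrd5, chr1:158185800-158185859, minus strand: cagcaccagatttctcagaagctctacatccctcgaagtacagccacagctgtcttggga

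A level below is an intensity divided by the 75th percentile of its array, on a log2 scale, so 0 is that percentile and a difference of 1 is 2-fold. Levels of different genes come from different probes and are not set against each other. The 75th percentiles lay at intensities of 124 to 782, and the scanner called 44.8 to 65.2% of spots well above background. The array with 2i, A83-01 and 4OHT was the dimmest. The arrays lay on 10 slides that mostly followed the groups. Where 2 arrays lay on different slides, slide and condition cannot be told apart. The PGC, ESC and EGC arrays each lay alone on a slide, so this holds for all their differences. Of the lists of markers fixed for cell types, all 8 PGC markers were well above background in uncultured PGCs, with a summed linear level of 105 against 11.7 to 54.7 on the 5 arrays of the culture course. Markers of gonadal somatic cells summed to 0.612 to 2.48 over all arrays. In a bulk sample, fewer cells of a type and less RNA per cell cannot be told apart.

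Mael, Tdrd5, Piwil2, Fkbp6 and Tex101 were well above background on all 22 arrays, Mov10l1 on 19, Tdrd1 on 18, and Tdrd9 and Asz1 on 13. Tdrd6, the scaffold of the later chromatoid body, was not well above background on any array. Asz1 had the sharpest division by cell type: it was well above background on all 11 culture arrays, in uncultured PGCs and in the EGC line, and on none of the 9 ESC-type arrays. With 1 array a condition there is no spread between replicates, so no neighbours in the order of the levels can be shown to differ.

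**Figure D1:**
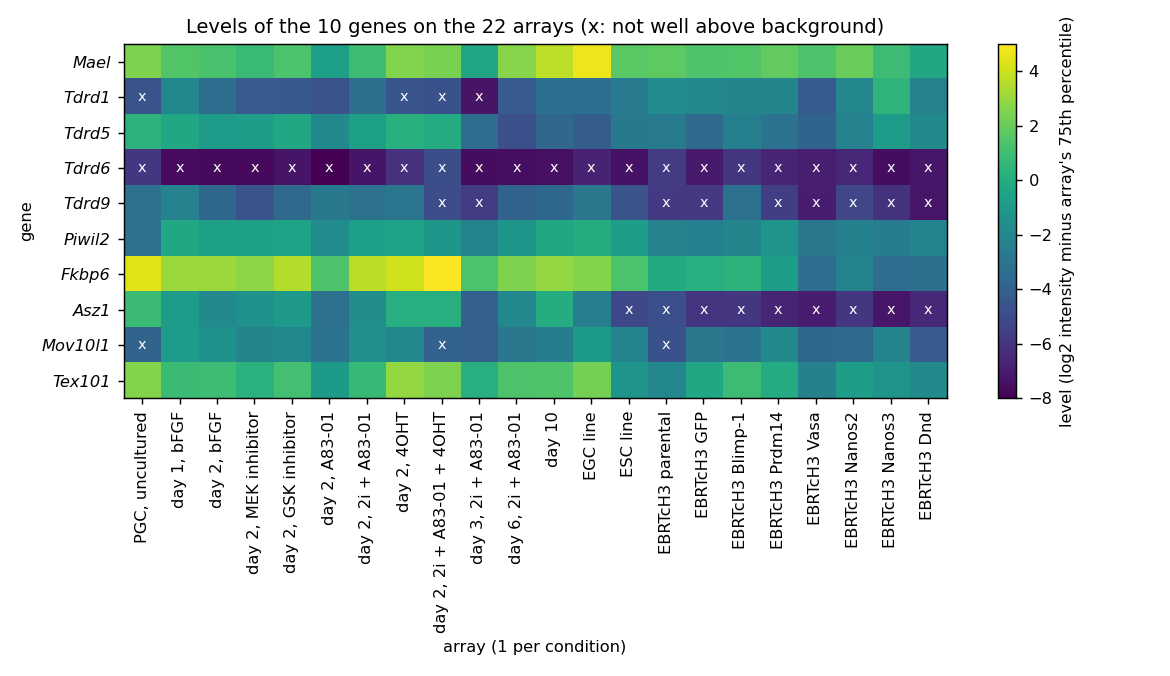
Levels of the 10 genes (rows) on the 22 arrays (columns, 1 per condition), as log2 intensity minus the array's 75th percentile, with a cross where the gene was not well above background. Each row is to be read along its own length: Asz1 is crossed on all 9 ESC-type arrays and Tdrd6 on all 22.

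The 2 probes of a gene followed each other for Fkbp6 (Pearson r = 0.98 over 22 arrays) and Tdrd5 (r = 0.97), and less closely for Mov10l1 (r = 0.82). Tdrd1 was the exception at r = 0.38, and its other probe, which joins 2 exons, was well above background only on the array labelled Nanos3. These correlations describe arrays that share a platform and a scaling, and they have no p. For each gene the probe with the higher mean level is used below.

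**Figure D2:**
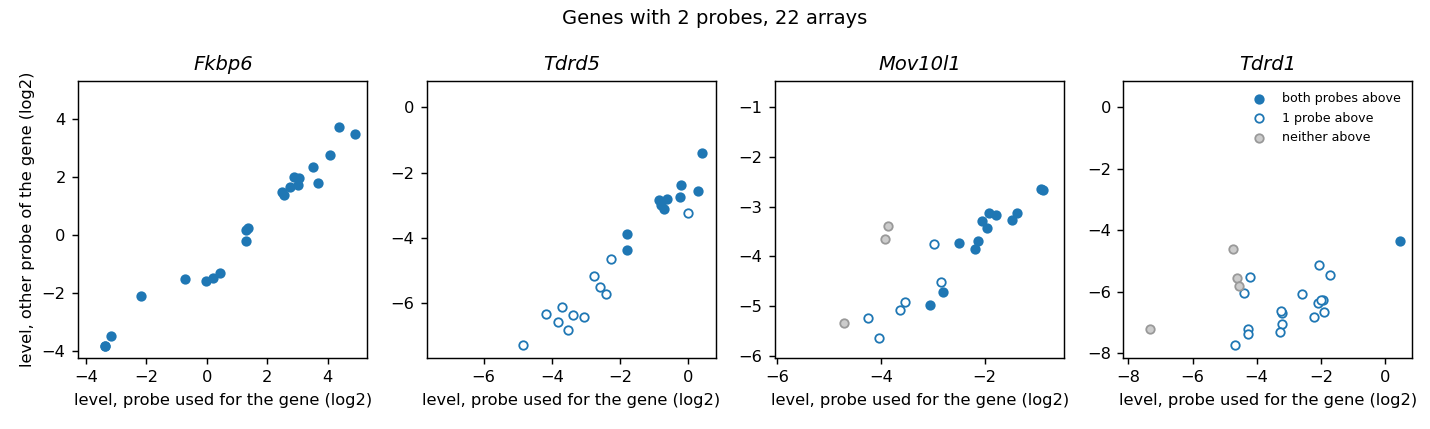
Level of the probe used (x axis) against that of the gene's other probe (y axis), both log2, on the 22 arrays for the 4 genes with 2 probes. Open points have 1 probe well above background, grey points neither, and filled blue points both, as on all 22 arrays for Fkbp6, 10 for Tdrd5, 13 for Mov10l1 and 1 for Tdrd1.

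The first question was how uncultured PGCs stood against pluripotent lines. All these arrays lay on different slides, so slide and cell type cannot be told apart. Asz1, Tdrd5, Fkbp6 and Tex101 lay higher on the PGC array than on all 3 line arrays, and Piwil2 and Tdrd1 lay lower. Asz1 was at 0.87 in PGCs, at -2.45 in the EGC line and below background in the ESC line and the parental EBRTcH3 line, so it was at least 63.9-fold higher in PGCs than in ESCs. Fkbp6 was at 4.38 in PGCs against 1.31 in ESCs, 2.57 in EGCs and -0.04 in parental EBRTcH3. Tdrd5 was at 0.41 against -2.75, -4.17 and -2.59 in the same lines, so the PGC array lay above all 3 lines for these genes.

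Piwil2 had its lowest level of all 22 arrays in PGCs, -3.08, against -0.72 in ESCs, 0.04 in EGCs and -2.23 in parental EBRTcH3. Tdrd1 was not well above background in PGCs, whose lowest level so called was -3.70, and was at -2.58 in ESCs, -3.26 in EGCs and -1.71 in parental EBRTcH3. Mov10l1 was not well above background in PGCs or in parental EBRTcH3. Mael was at 2.48 in PGCs, 1.70 in ESCs, 4.69 in EGCs and 1.77 in parental EBRTcH3, so the EGC line lay above PGCs. Tex101 was at 2.58 in PGCs, -1.26 in ESCs and -2.00 in parental EBRTcH3, with the EGC line at 2.27 close to the PGC value. The PIWI protein and its Tudor partner Tdrd1 thus stood apart from Asz1, Fkbp6 and Tdrd5 on the PGC array.

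With limma and Benjamini-Hochberg adjustment, none of the 9 members tested passed between PGCs and the 3 lines, and none of 18956 genes did (0%), while 9.82% of genes and 3 members had an unadjusted p under 0.05. These were Asz1, higher by 5.03 (SE 1.25, adjusted p = 0.260), Tdrd5, higher by 3.58 (SE 0.92, adjusted p = 0.272), and Fkbp6, higher by 3.11 (SE 1.15, adjusted p = 0.466). Piwil2 was at -2.12 (SE 1.06, adjusted p = 0.629) and Tdrd1 at -2.09 (SE 0.88, adjusted p = 0.532). Asz1 was higher by 5.88 when the EGC array was left out and by 4.50 when the ESC array was. Asz1 was below background in ESCs and parental EBRTcH3, and the fits took those readings as they stood. Without the EGC array its spread came from such readings alone, so no conclusion is drawn from that fit. The median difference of the members was 1.34 against 0.12 over all genes tested. Between the PGC and ESC arrays alone, 5 of 9 members were at least 2-fold higher in PGCs, where 31% of genes were, and 3 were at least 2-fold lower, where 18.5% were; with normexp these counts were 4 and 1.

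Of 51 other piRNA and germ granule genes, 45 were measured and 41 were tested here, and none passed while 7 had an unadjusted p under 0.05. Between the PGC and ESC arrays 12 of 39 were at least 2-fold higher, where 31% of all genes were, and 8 at least 2-fold lower, where 18.5% were. These counts lay near the shares of all genes. Among the RNA-binding proteins of germ cells on the list, Nanos3 was at 1.60 in PGCs against -2.91 in ESCs and Dnd1 at 4.04 against 0.15, while Lin28a was at 0.00 against 3.00. Dnmt3l, a cofactor of DNA methylation at transposons, was below background in PGCs and at 4.77 in ESCs, a difference of at least 8.47 on the log2 scale. Of 8 blood markers 5 were well above background in uncultured PGCs, with a summed linear level of 47.7 against 2.28 in ESCs, and their part in these differences was not tested.

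The course of culture was the second comparison. Between uncultured PGCs and day 1 with bFGF, on different slides, the members split. Piwil2 went from -3.08 to -0.18, a 7.48-fold difference. Mov10l1 was below background in PGCs and at -0.87 at day 1, at least 7.13-fold higher. The other Mov10l1 probe was closer, at -3.39 in PGCs, not well above background, and at -2.67 at day 1. Tdrd1 was below background in PGCs and at -1.92 at day 1, at least 3.43-fold higher. Asz1 was 3.38-fold lower at day 1 than in PGCs, Fkbp6 2.53-fold and Mael 2.04-fold, and Tex101 was at 0.86 against 2.58. So 3 of 9 members were at least 2-fold higher, where 15.7% of all genes were, and 4 were at least 2-fold lower, where 33.3% were.

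The shift of all genes between these arrays was -0.59 on the log2 scale, and relative to it 4 members were higher and 2 lower by 2-fold. The split was 4 higher and 3 lower with median scaling, 4 and 2 with quantile normalization, and 2 and 4 with the mean over a gene's probes. The summed linear level of PGC markers was 105 in PGCs and 54.7 at day 1, that of blood markers 47.7 and 0.106, with none of the 8 well above background at day 1. Fibroblast markers summed to 7.37 and 88.9, and trophectoderm markers to 49.7 and 200.4. The trophectoderm sums lay mostly in Krt8, at 4.06 and 6.18, and Krt18, at 5.01 and 6.996. Cdx2 was lower at day 1, at -4.20 against -0.38, and Hand1 was well above background on neither array. Gata3 was at -4.33 in PGCs, not well above background, and at -1.44 at day 1. The median level of the trophectoderm list was -0.38 in PGCs and -1.44 at day 1. The part of any of these markers in the result was not tested.

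Little separated day 1 from day 2. With bFGF alone, Tdrd1 (2.57-fold) and Tdrd9 (2.60-fold) were at least 2-fold lower at day 2, where 5.14% of genes were, and no member was at least 2-fold higher (3.95% of genes). With 2i and A83-01 added, only Tdrd1 was, at 2.44-fold lower, where 4.97% of genes were.

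Day 3 was the low point of the course for most members. Against day 2, both with bFGF, 2i and A83-01, 8 of 9 members were at least 2-fold lower at day 3, where 6.08% of all genes were, and none was at least 2-fold higher (3.4% of genes). The median difference of the members was -2.18 against 0.03 over all genes tested. Tdrd5 went from -0.62 to -3.38, a 6.75-fold difference, Mov10l1 from -1.47 to -4.04, a 5.91-fold difference, and Fkbp6 from 3.68 to 1.30, a 5.21-fold difference. Asz1 was 5.23-fold lower, Piwil2 2.81-fold and Mael 2.49-fold. Tdrd1 and Tdrd9, Tudor proteins of the granule, were not well above background at day 3, which makes them at least 4.37-fold and 4.52-fold lower. Tex101, the surface glycoprotein, was the exception at 0.71 and 0.21, a 1.41-fold difference.

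The scaffolds and helicases were thus low together with the PIWI protein on that array. The PGC markers had a summed linear level of 48.6 at day 2 and 11.7 at day 3, and the fibroblast markers 304 and 133. The part of either in the result was not tested. With normexp background correction, which compresses low signals, 4 members and not 8 were at least 2-fold apart. The day 2 and day 3 arrays lay on different slides, so slide and day cannot be told apart for this step. Of the other list genes, 13 of 40 were at least 2-fold lower and 1 was at least 2-fold higher. Dnd1 went from 1.37 to -1.68, Ddx4, the Vasa helicase of the granule, from 1.06 to -1.39, and Exd1, which binds piRNA intermediates, from -0.62 to -3.11. Dnmt3l went the other way, from -3.62 to 1.90.

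From day 3 to day 6, 8 of 9 members were at least 2-fold higher, where 12.3% of genes were. Both arrays lay on the same slide. Mael went from -0.37 to 2.62, a 7.92-fold difference, and Asz1 from -4.01 to -1.94, a 4.20-fold difference. Tex101, Fkbp6, Mov10l1 and Piwil2 were 2.05-fold to 2.35-fold higher, and Tdrd1 and Tdrd9 were at least 2.10-fold and 2.83-fold higher than their bound at day 3. Tdrd5 was the exception: it was at -3.38 at day 3 and -4.84 at day 6, 2.75-fold lower, where 7.3% of genes were at least 2-fold lower. The count apart was 5 with median scaling, and 3, all higher, with normexp. Of the other list genes, 17 of 40 were at least 2-fold higher and 1 lower, with Lin28a, an RNA-binding protein of pluripotent and germ cells, at -1.73 and 2.29. From day 3 to day 6 the summed linear level of PGC markers went from 11.7 to 24.2, that of pluripotency markers from 41.99 to 103, and that of markers of entry into meiosis from 12.1 to 59.0. The part of any of them in the result was not tested.

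At day 10, 4 of 9 members were at least 2-fold higher than at day 6, where 8.35% of genes were, and none was at least 2-fold lower (8.99% of genes). Asz1 went from -1.94 to 0.07, a 4.05-fold difference, and Mael from 2.62 to 3.72, a 2.15-fold difference. Tdrd1 and Tdrd5 were 2.06-fold and 2.20-fold higher, and only Asz1 stayed past 2-fold with quantile normalization, with normexp, or with the 0.22 shift of all genes taken off.

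The day 1 and day 10 arrays shared a slide. Between them Mael was 4.82-fold higher at day 10 and Tdrd5 stood lower, at -0.21 on day 1 and -3.70 on day 10. Tdrd9, Mov10l1 and Tdrd1 were 2.66-fold, 3.09-fold and 2.47-fold lower at day 10. So 1 member was at least 2-fold higher, where 19.4% of genes were, and 4 were at least 2-fold lower, where 13.7% were. This same-slide difference was added after the data had been seen.

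**Figure D3:**
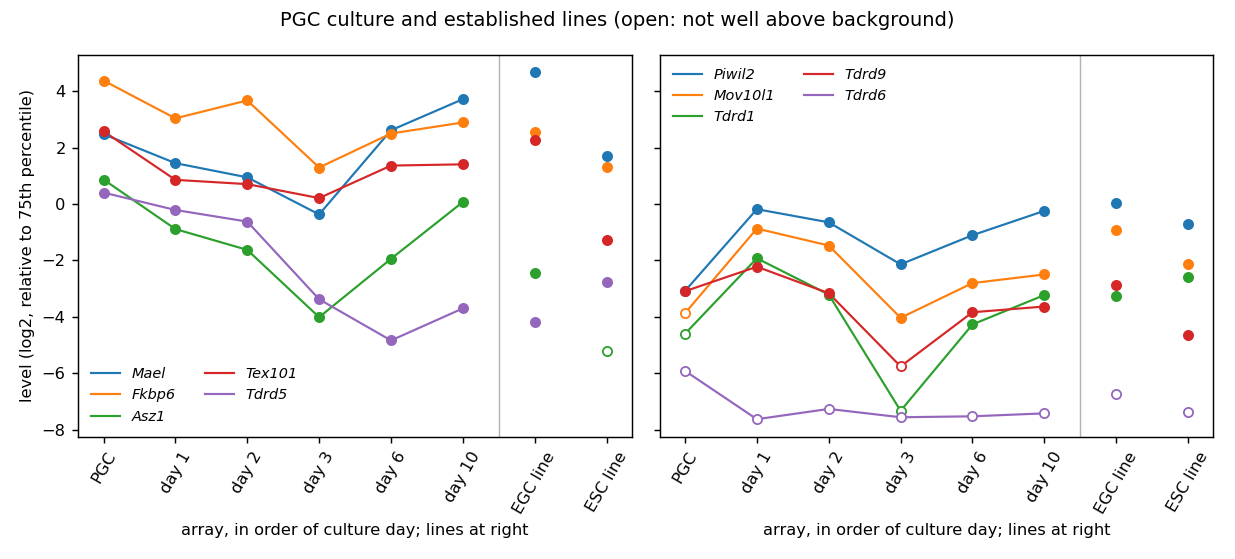
Level (log2, relative to the array's 75th percentile) of each member in uncultured PGCs, at day 1 with bFGF, at days 2, 3 and 6 with bFGF, 2i and A83-01, at day 10, and in the EGC and ESC lines, 1 array each; open points are not well above background. At day 3, 8 of the 9 members that can be compared lie at least 2-fold under day 2, and Tdrd5 stays low afterwards.

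The slope over log2(day + 1) on the 6 course arrays was tested with limma. None of the 9 members passed after Benjamini-Hochberg adjustment, nor did any of 19044 genes (0%), while 12.3% of genes had an unadjusted p under 0.05. Tdrd5 was the member among them, with a slope of -1.55 (SE 0.34, unadjusted p = 0.00328, adjusted p = 0.186), and its adjusted p was 0.0617 with slide as a block. Mael had a slope of 0.36 (SE 0.45, adjusted p = 0.769) and Piwil2 of 0.51 (SE 0.33, adjusted p = 0.577). A slope does not describe values that are low at day 3 and higher later. Of the other list genes 10 of 40 had an unadjusted p under 0.05, with Dnmt3l at a slope of 3.08 (adjusted p = 0.138) and Dnd1 at -1.41 (adjusted p = 0.257).

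Several members stood higher in the EGC line than in the ESC line. Tex101 was at 2.27 in EGCs and -1.26 in ESCs, a log2 difference of 3.53, and Mael was 7.94-fold higher, at 4.69 against 1.70. Tdrd9 was at -2.87 against -4.64, a 3.43-fold difference. Asz1 was at -2.45 in EGCs and below background in ESCs, at least 6.40-fold higher. Fkbp6 was 2.39-fold and Mov10l1 2.32-fold higher, so 6 of 9 members were at least 2-fold higher, where 12% of genes were. Tdrd5 was 2.68-fold lower in EGCs, where 7.02% of genes were at least 2-fold lower, and Piwil2 and Tdrd1 differed by less than 2-fold. With normexp 3 members were higher and none lower.

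Against the day 10 culture, the EGC line differed at least 2-fold in Asz1, which was 5.75-fold lower, and in Mov10l1, which was 2.98-fold higher. At least 2-fold lower were 6.35% of genes and 5.63% were at least 2-fold higher, and with normexp Asz1 alone was 2-fold apart. Of the other list genes 10 of 41 were at least 2-fold higher in EGCs than in ESCs and none was at least 2-fold lower. The higher genes were led by Tex19.2, at 2.09 against -1.24, and Dazl, a germ cell RNA-binding protein, at 1.74 against -0.44. These differences rest on 1 line of each kind, on different slides, and have no test.

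At day 2 each addition was set against bFGF alone, so these comparisons share that control array. A83-01 alone gave the lowest values. Mael was at 1.26 with bFGF and -0.68 with A83-01, a 3.85-fold difference, Tex101 at 0.95 and -0.91, a 3.62-fold difference, and Mov10l1 at -1.38 and -3.05, a 3.18-fold difference. Fkbp6 was 3.16-fold lower, Tdrd1 2.64-fold, Asz1 2.56-fold and Piwil2 2.24-fold. So 7 of 9 members were at least 2-fold lower, where 6% of genes were, and none was at least 2-fold higher (6.94% of genes). Tdrd9, the helicase partner of MIWI2, was the member above its control, at -3.60 with bFGF and -2.73 with A83-01.

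With A83-01 and 2i together no member was 2-fold from bFGF alone, where 2% of genes were higher and 1.92% lower. Mael was at 0.95 there, Tex101 at 0.71, Mov10l1 at -1.47 and Fkbp6 at 3.68, so these values lay nearer to bFGF alone than to A83-01 alone. The PD325901 array had 1 member at least 2-fold lower, Tdrd9 at 2.04-fold, where 3.54% of genes were, and none higher (6.28% of genes). The CHIR99021 array had 1, Tdrd1 at 2.15-fold lower, where 6.96% of genes were, and none higher (11.4% of genes), but with the mean over both Tdrd1 probes the difference was 0.076 in the other direction.

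The A83-01, PD325901 and CHIR99021 arrays lay on 1 slide, and the bFGF and 2i with A83-01 arrays on another. Within the slide, A83-01 stood at least 2-fold below PD325901 in 6 of 9 members, where 5.03% of genes did, and at least 2-fold below CHIR99021 in 7, where 9.17% did. Against PD325901 Asz1 was 3.42-fold lower and Mael 2.69-fold lower, and Tdrd9 was 3.76-fold higher, where 4.34% of genes were at least 2-fold higher. Against CHIR99021 Asz1 was 4.47-fold, Fkbp6 4.41-fold, Tex101 4.09-fold and Mael 3.96-fold lower. Between CHIR99021 and PD325901 Tdrd9 alone was 2-fold apart, 2.20-fold higher with CHIR99021, where 5.73% of genes were higher and 3.51% lower. These same-slide differences were added after the data had been seen. All 8 PGC markers were well above background with A83-01, but their summed linear level was the lowest of all culture arrays, under the 38.4 with bFGF, 33.8 with PD325901 and 39.9 with CHIR99021. Their part in the result was not tested.

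Other list genes were lower with A83-01 as well: 13 of 41 were at least 2-fold below bFGF alone, where 6% of genes were. None was at least 2-fold above (6.94% of genes). Ddx4 was at 1.08 with bFGF and -0.76 with A83-01, Stk31, a Tudor domain kinase, at -1.79 and -3.72, and Cpeb1, a regulator of translation in germ cells, at 0.57 and -1.55. The median difference was -0.65 for the other list genes, -1.40 for the members and 0.05 over all genes tested.

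With 4OHT, 5 of 9 members were at least 2-fold higher than with bFGF alone, where 26.2% of genes were. Asz1 was at 0.15 with 4OHT and -1.80 with bFGF, a 3.86-fold difference, and Tex101 at 2.89 and 0.95, a 3.85-fold difference. Mael was at 2.53 and 1.26, a 2.42-fold difference, Tdrd5 2.12-fold and Fkbp6 2.05-fold higher. Piwil2 was at -0.46 and -0.58, and none was at least 2-fold lower (11.3% of genes). The shift of all genes was 0.43, and relative to it 2 members were higher and 1 lower by 2-fold; with quantile normalization 4 were higher and 1 lower.

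With 2i, A83-01 and 4OHT, Asz1 was 3.83-fold, Fkbp6 3.70-fold, Tex101 2.79-fold and Mael 2.15-fold higher than with bFGF alone, where 35.1% of genes were at least 2-fold higher. Mov10l1 was below background there, at least 2.40-fold lower, where 15.2% of genes were at least 2-fold lower. The shift of all genes was 0.82 on this dimmest array, and relative to it 2 members were higher and 2 lower, as with median scaling, while with normexp 2 were higher and 1 lower. Against 2i with A83-01, 4 of 9 members were at least 2-fold higher, where 35.8% of genes were, and 1 lower, where 15.3% were. Relative to the shift of all genes these counts were 1 and 2, with median scaling 2 and 2, and with normexp 2 and 1. Against 4OHT alone, on the same slide, no member was 2-fold apart, where 8.76% of genes were higher and 4.6% lower; 1 was lower with quantile normalization or normexp, and 2 relative to the shift of all genes. Fibroblast markers had summed linear levels of 8.95 and 3.87 on the 2 arrays with 4OHT and 40.0 to 304 on the other day 2 arrays, and their part in the result was not tested. Both 4OHT arrays lay on a slide of their own, so 4OHT and slide cannot be told apart.

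**Figure D4:**
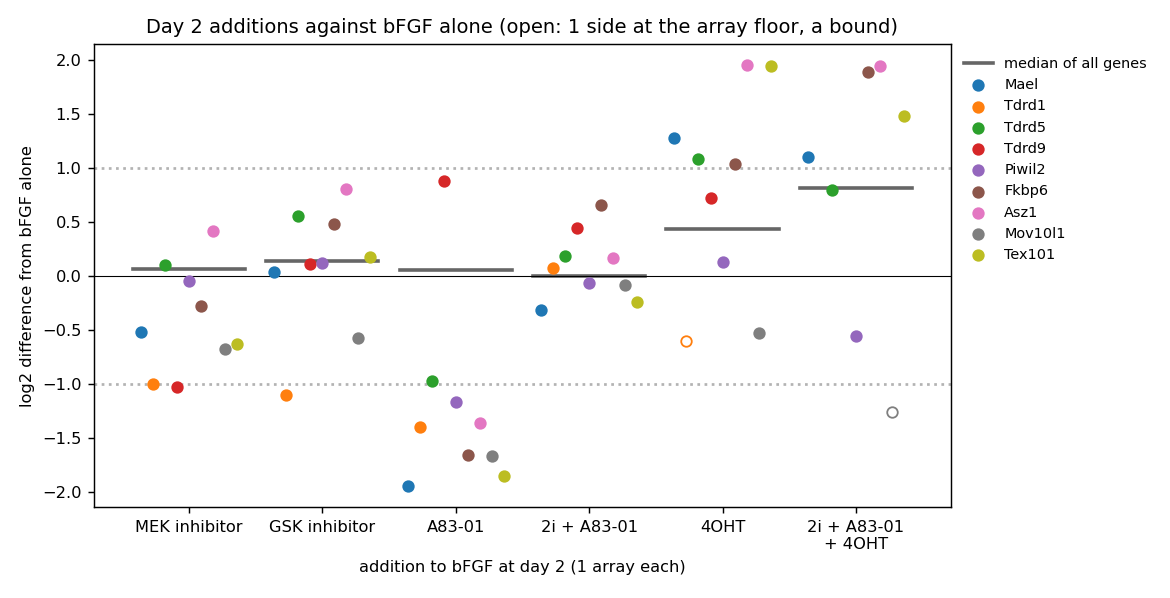
Log2 difference of each day 2 addition from bFGF alone for the 9 members that can be compared (1 array each; dotted lines mark 2-fold; open points are bounds; the grey bar is the median of all genes tested; Tdrd1 and Tdrd9 have no usable bound with 2i, A83-01 and 4OHT and are not drawn there). With A83-01 7 points lie under -1, and with 2i and A83-01 all points lie between the dotted lines.

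The 7 day 2 arrays were fitted in limma with 1 additive term for each agent, which left 2 residual degrees of freedom. No member and none of 19096 genes (0%) passed for any term. For A83-01, 5 of 9 members had an unadjusted p under 0.05, where 3.7% of genes did: Asz1 at -1.28 (SE 0.27), Mael at -1.17 (SE 0.40), Tex101 at -1.16 (SE 0.41), Piwil2 at -0.90 (SE 0.34) and Tdrd5 at -0.87 (SE 0.29), each with an adjusted p of 0.9998. Asz1 passed at -1.28 (adjusted p = 0.0458) with slide in place of 4OHT, where 3.24% of all genes passed. Mael and Tex101, both at -1.91, and Mov10l1 passed when the CHIR99021 or the PD325901 array was left out, where 5.89% and 5.57% of all genes passed. Without the A83-01 array, which leaves the mixtures to carry the term, Mael was at 0.16 (adjusted p = 0.985) and Tex101 at 0.21 (adjusted p = 0.980).

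For 4OHT, 5 members had an unadjusted p under 0.05, where 46.7% of genes did, and the median over all genes was 0.58. Tex101 was at 2.24 (SE 0.39, adjusted p = 0.0526), Asz1 at 1.93 (SE 0.26, adjusted p = 0.0526) and Mael at 1.75 (SE 0.39, adjusted p = 0.0538). Fkbp6 was at 1.54 (SE 0.39, adjusted p = 0.0592) and Tdrd5 at 0.96 (SE 0.28, adjusted p = 0.0698), so these values lay just short of the threshold. Asz1, Mael, Fkbp6 and Tex101 passed with the mean over a gene's probes, where 21.7% of all genes passed. No member passed with median scaling, quantile normalization or the authors' table, and the closing section gives the other settings. For CHIR99021, Fkbp6 at 1.26 (SE 0.40) and Asz1 at 0.88 (SE 0.27) had an unadjusted p under 0.05, where 4.67% of genes did, with an adjusted p of 0.906 each. On the arrays Fkbp6 was at 3.50 with CHIR99021 and 3.02 with bFGF, so its term was larger than this direct difference. Asz1 was at -0.995 and -1.80 on the same arrays. The fit takes CHIR99021 and A83-01 to add up in the mixtures, which was not tested. For the sum of the 2i and A83-01 terms no member had an unadjusted p under 0.05, where 2.48% of genes did. For PD325901 no member did, where 3.23% of genes did. Tdrd1 passed at 2.58 (adjusted p = 0.0445) when the PD325901 array was left out, where 10.9% of all genes passed. That leaves the mixtures to carry the term, so no effect of PD325901 alone is read from it. In the full fit Tdrd1 was at 0.23, and on the arrays it was at -4.28 with PD325901 and -3.29 with bFGF. Of the other list genes, 21 of 41 had an unadjusted p under 0.05 for 4OHT, among them Tex19.1 at 2.68 (adjusted p = 0.0526), and 4 for A83-01.

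In EBRTcH3 ESCs 5 of the 6 forced genes were checked first. Nanos3 was at 2.66 on the array labelled Nanos3 and at -3.19 to -0.33 on the other 7. Ddx4 (Vasa) was lowest on the array labelled Vasa, at 0.01 against 0.26 to 1.49, and Nanos2 was not well above background on any EBRTcH3 array. Dnd1 was the second highest on the array labelled Dnd, at 1.43, and Prdm1 had rank 7 of 8 on the array labelled Blimp-1, at -1.38. Prdm14 was not checked here. Whether these probes lie within the introduced sequences was not examined, so the arrays are named by their labels and no direction is drawn from the forced gene.

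Tdrd1, the Tudor scaffold that binds MILI, stood high on the array labelled Nanos3. It was at 0.45 there and at -4.21 to -1.71 on the other 7 EBRTcH3 arrays, and this was its highest level of all 22 arrays. On the same slide it was at -1.98 on the array labelled Nanos2, a 5.41-fold difference, and at -2.21 on the array labelled Dnd, a 6.35-fold difference. The other Tdrd1 probe was well above background on this array alone. Mov10l1 was at -2.18 on the array labelled Nanos3, at -3.54 for Nanos2 and at -4.25 for Dnd, and Tdrd5 was at -0.86, -2.25 and -1.79. Mael, in contrast, was at 0.89, 2.03 and -0.23 on these arrays.

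The other list genes differed in both directions on the array labelled Nanos3. Against the array labelled Nanos2, 8 of 41 were at least 2-fold higher and 8 at least 2-fold lower, with Tdrd7, a Tudor scaffold, at -0.31 against -3.07 and Morc1, which acts in transposon silencing, at 0.44 against 3.60. Of the members 3 of 7 were higher, where 9.5% of genes were, and 2 lower, where 12.6% were. Pluripotency markers had a summed linear level of 82.1 on this array and 161 to 315 on the other 7, and trophectoderm markers 230 against 5.91 to 68.2. The part of either in the result was not tested.

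Other members stood apart on other constructs. Fkbp6 was at -3.37 on the array labelled Vasa and at -0.04 in the parental line on the same slide, a 10.1-fold difference. It was also at -3.36 on the array labelled Nanos3, -3.18 for Dnd and -2.16 for Nanos2, so its low level was not particular to Vasa. On the array labelled Vasa, Tdrd1 was 5.63-fold and Tdrd5 2.35-fold lower than in the parental line. So 3 of 7 members were at least 2-fold lower, where 9.58% of genes were, and none was higher (8.31% of genes). On the array labelled Prdm14, Tex101 was 3.99-fold higher than in the parental line and Mov10l1 at least 3.27-fold higher, where 12.1% of genes were at least 2-fold higher, and no member was at least 2-fold lower (17% of genes). Tdrd9 was well above background only on the array labelled Blimp-1, at -3.08, at least 3.32-fold higher than with GFP alone. Tex101 was 2.27-fold and Tdrd5 2.17-fold higher there, so 3 of 8 members were, where 11.6% of genes were, and none was at least 2-fold lower (4.25% of genes). Asz1 and Tdrd6 were not well above background on any of the 8 EBRTcH3 arrays.

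**Figure D5:**
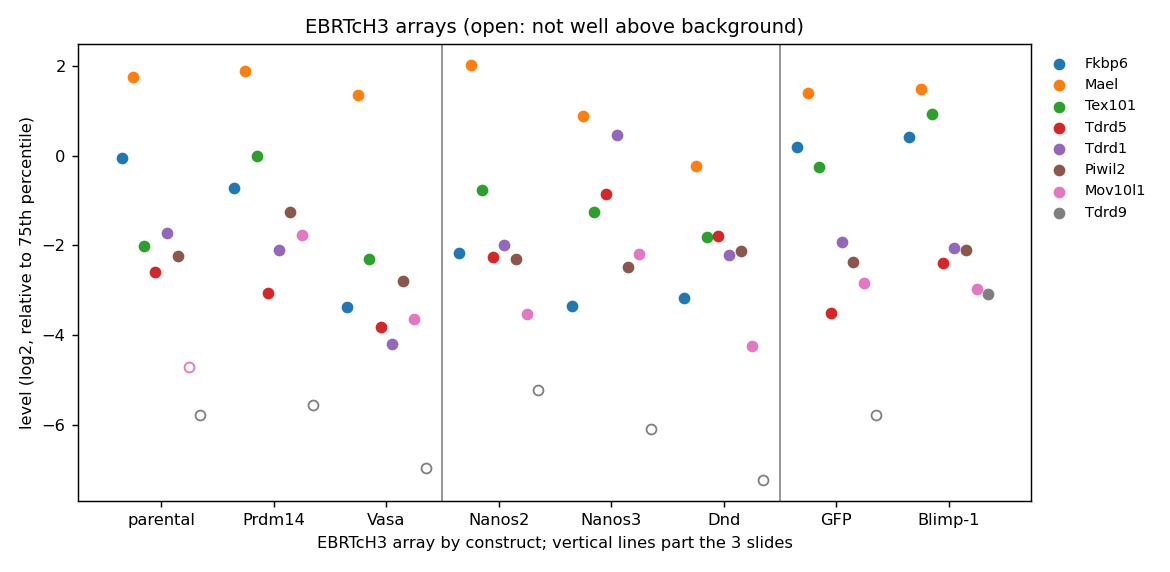
Level (log2, relative to the array's 75th percentile) of 8 members on the 8 EBRTcH3 arrays, 1 array a construct, parted by slide; open points are not well above background. Tdrd1 stands highest on the array labelled Nanos3, at 0.45. Fkbp6 is low on the arrays labelled Vasa, at -3.37, Nanos3, at -3.36, and Dnd, at -3.18.

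Each construct was tested with limma in a fit of the 8 EBRTcH3 arrays with slide as a block, which left 4 residual degrees of freedom, and no member passed after Benjamini-Hochberg adjustment. None of 19270 genes passed (0%) for any construct except Dnd, with 2 (0.0104%). Tdrd1 was at 2.55 (SE 0.96, adjusted p = 0.507) for Nanos3, where 9.13% of genes had an unadjusted p under 0.05. Fkbp6 was at -2.99 (SE 0.62, adjusted p = 0.999995) for Vasa, where 2.76% did. For Prdm14, where 6.22% did, Tex101 was at 2.15 (SE 0.64, adjusted p = 0.682), Mov10l1 at 2.40 (SE 0.86, adjusted p = 0.715) and Piwil2 at 1.25 (SE 0.41, adjusted p = 0.704). Tdrd9 was at 2.70 for Blimp-1, but it was below background with GFP alone, so only the bound given above holds. Mov10l1 was below background in the parental line, so its 2.40 for Prdm14 rests in part on such a reading. Mael was at 1.70 for Nanos2 and at -1.69 for Dnd. The Nanos2, Nanos3 and Dnd arrays shared a slide with no parental or GFP array. Each of these terms, like that of Tdrd1 for Nanos3, thus sets 1 construct against the others and not against unforced cells. The Mael values come from the same arrays and are not separate results.

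The members did not share 1 pattern. Over the 22 arrays Fkbp6 and Asz1 had a Pearson r of 0.93, Fkbp6 and Tex101 of 0.83, Asz1 and Tex101 of 0.81, and Piwil2 and Mov10l1 of 0.76. Within PGCs and the 11 cultures, 12 arrays, Fkbp6 and Asz1 had r = 0.87, Piwil2 and Mov10l1 had r = 0.80, and Tdrd1 and Mov10l1 had r = 0.77. Tdrd1 with Fkbp6 and with Asz1 had r = -0.52 each over the 22 arrays, but 0.31 and 0.43 over these 12, so the sign depended on the arrays taken. The arrays share slides and a scaling, and 9 members were used because Tdrd6 was never well above background.

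Of 15994 genes well above background on at least 11 arrays, Slc25a31, a germ cell ADP/ATP carrier, came nearest to the mean pattern of the members (r = 0.93 over 22 arrays). Tex12, a part of the meiotic synaptonemal complex, followed at r = 0.90, then Spa17, a sperm protein, at 0.89 and Hormad2, a meiotic chromosome axis protein, at 0.88. Pgbd5, 1700048O20Rik, Actn2 and Mbl2 lay at 0.87 to 0.88. They are the closest of many and are given as a description.

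Promoter sequences from RefSeq on GRCm38.p6 were found for 8 of the 10 genes, as 250 bases before and 50 after each start. They were searched on both strands for CACGTG, a palindrome known as an E-box, and for TCCCGC, a match to the E2F motif, both chosen with the members known. CACGTG was found in 5 of the 8 genes (Mael, Fkbp6, Tdrd9, Mov10l1 and Tdrd1), and 8.09% of all 27025 genes with such windows hold it. The motif contains CG, and the windows of the 8 genes held 3 to 48 CG pairs, against a median of 7 over all windows. The share of all genes was not matched for this. TCCCGC was found in 2 (Mael and Tdrd5), where 22.1% of all genes hold it, and the motifs did not overlap. The bases before the start are shown for the 5 genes with CACGTG, which stands in capitals. All 5 were low at day 3, but so were 8 of 9 members. Asz1 and Tdrd5 were among those 8 and have no CACGTG, so the overlap sets the 5 genes apart in nothing. Fkbp6 has 2 starts and Tdrd1 3 in the table, and 1 of each is shown.
Fkbp6, chr5:135350045-135350294, minus strand: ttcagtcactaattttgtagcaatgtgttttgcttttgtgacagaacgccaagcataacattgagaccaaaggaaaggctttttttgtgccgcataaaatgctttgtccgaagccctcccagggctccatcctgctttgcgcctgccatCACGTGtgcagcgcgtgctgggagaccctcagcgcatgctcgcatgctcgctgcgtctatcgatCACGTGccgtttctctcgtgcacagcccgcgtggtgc
Mael, chr1:166238745-166238994, minus strand: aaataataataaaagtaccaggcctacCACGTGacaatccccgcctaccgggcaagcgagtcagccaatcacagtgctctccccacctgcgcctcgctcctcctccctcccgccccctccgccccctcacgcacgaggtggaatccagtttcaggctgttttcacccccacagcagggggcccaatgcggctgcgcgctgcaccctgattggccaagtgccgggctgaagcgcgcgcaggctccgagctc
Tdrd9, chr12:111971309-111971558, plus strand: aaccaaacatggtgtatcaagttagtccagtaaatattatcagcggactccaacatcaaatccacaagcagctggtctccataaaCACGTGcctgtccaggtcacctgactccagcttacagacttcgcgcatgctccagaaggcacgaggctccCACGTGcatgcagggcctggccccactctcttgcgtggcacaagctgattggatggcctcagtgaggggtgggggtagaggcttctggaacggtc
Mov10l1, chr15:88982744-88982993, plus strand: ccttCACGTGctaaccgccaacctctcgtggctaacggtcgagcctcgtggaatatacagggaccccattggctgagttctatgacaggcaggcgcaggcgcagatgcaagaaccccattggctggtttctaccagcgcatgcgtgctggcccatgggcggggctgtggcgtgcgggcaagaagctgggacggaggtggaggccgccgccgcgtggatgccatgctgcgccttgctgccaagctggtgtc
Tdrd1, chr19:56825959-56826208, plus strand: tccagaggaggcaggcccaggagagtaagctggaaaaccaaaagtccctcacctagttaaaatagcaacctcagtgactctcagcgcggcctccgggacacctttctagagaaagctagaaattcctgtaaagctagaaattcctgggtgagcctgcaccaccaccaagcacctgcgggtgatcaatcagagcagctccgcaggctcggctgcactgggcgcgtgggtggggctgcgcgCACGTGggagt

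CACGTG stood 101 and 37 bases before the Fkbp6 start shown, 223 before that of Mael, 165 and 95 before that of Tdrd9, 246 before that of Mov10l1 and 11 before the Tdrd1 start shown. Before the other Fkbp6 start it stood at 232 and 168 bases, and before another Tdrd1 start at 77, while the window of the last Tdrd1 start has no match. Asz1, whose levels ran closest to Fkbp6, has no match in its window, and neither does Tex101. A match is a description of the letters and not of binding.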

How the data were processed

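Labelled RNA from 22 mouse samples was hybridised to Agilent 1-colour arrays, 1 array a condition, so p-values rest on the spread between different conditions or lines. Per the file headers, the authors scanned the arrays with Agilent Feature Extraction 10.7.3.1, and the deposited values used here are the background-subtracted Cy3 intensity of each spot (gProcessedSignal) on the mm9 design. In the authors' deposited table of intensity values, 99.5% of probe values lay within 1% of these, and its use is an alternative.

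Outlier spots and control spots were left out, repeat spots averaged, and each array's log2 intensity, computed from the deposited intensity, was scaled to its 75th percentile. The probe with the highest mean level stood for a gene. Probes were named by accession through RefSeq (26918), by symbol (5082), by synonym (817) or by the file's own name (8357). Between 2 arrays a gene not well above background was set to the lowest level so called on its array (-5.77 to -2.65), and a fold is then written as "at least". The limma fits took such levels as they stood, so an effect that rests on one is not a measured size. Tests were fitted with limma 3.58.1 (lmFit, eBayes; R 4.3.3), two-sided, over all genes well above background on at least 1 array of the fit, with Benjamini-Hochberg adjustment at 0.05 over all of them. The fits were tested on simulated data.

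The members, the gene lists and the motifs were chosen with earlier results of these data known. Named were the 10 members with all probes; of the other list genes, from the 4 with the largest difference each way in a comparison; the forced genes; and the 8 genes of most similar pattern. Alternatives were other scalings, normexp with offset 50 and quantile normalization, the mean over probes, no filter, 1.5-fold and 3-fold limits, slide terms, other time scales and leaving out single arrays.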

Additional observations from a re-analysis of the deposited data

How the results depend on the processing

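With 1 array a condition, values carry no replicate error, and levels near background limit Asz1, Mov10l1, Tdrd1, Tdrd9 and Tdrd6 most. Piwil2 was close to background on the PGC array. No paired analysis was possible because each group has 1 array and the labels carry no replicate numbers. The reported count of members passing was 0 for each limma test. Under an alternative it stayed at 0 in 132 of 145 cases and left 0 in 13, which cannot show that a passing result holds. Of 180 counts of members 2-fold apart, 122 kept within 1.5 times the reported count. For single members, 2 of 275 tested effects and 1 of 560 differences turned sign. These were Mael (0.16) and Tex101 (0.21) in the A83-01 term without the A83-01 array, against lowest values of -1.91 for each without the CHIR99021 array, and Tdrd1 (0.076) between CHIR99021 and bFGF with the mean over probes. The causes were not tested. Normexp with its offset compresses low signals. Leaving out 1 array left 1 residual degree of freedom in the day 2 fits and 3 in the construct fits, and the part of either in these changes was not tested.

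In the tests, members passing for 4OHT numbered 4 with the mean over probes (21.7% of all genes passed), 6 with no filter (56.2%; with Tdrd6, which was below background on every array) and 4 with normexp (25.7%), and 0 to 6 with single arrays left out. They were 6 without the A83-01, CHIR99021 or PD325901 array (51.0, 51.8 and 51.3% of all genes), 4 without the bFGF array (19.8%), and 0 without any of the other arrays, as with median scaling, quantile normalization and the authors' table. For A83-01, 1 member passed with slide in place of 4OHT, and 0 to 3 with arrays left out. For PD325901 this range was 0 to 1, and for PGCs against the lines 0 to 1.

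The counts of members apart changed as follows. The share of all genes apart is not given for any alternative setting. These counts and those of the next paragraph therefore show only how the members' numbers moved, and not whether the members differ from all genes. With normexp they were 0 for day 2 bFGF against day 1, 0 for day 2 with 2i and A83-01 against day 1, 4 for day 3 against day 2, 3 for day 6 against day 3, 1 for day 10 against day 6, 1 for EGCs against day 10, 5 for PGCs against ESCs and 3 for EGCs against ESCs. Also with normexp, against bFGF at day 2 they were 0 for PD325901, 0 for CHIR99021, 3 for A83-01, 3 for 4OHT and 3 for 2i, A83-01 and 4OHT, and the last mixture had 3 against 2i with A83-01 and 1 against 4OHT. With normexp the constructs had 1 for Blimp-1, 1 for Prdm14 and 1 for Vasa. With median scaling the counts were 5 for day 6 against day 3, 2 for PD325901, 2 for 4OHT and 1 for Blimp-1. With quantile normalization they were 1 for day 10 against day 6 and 1 for the full mixture against 4OHT. With the mean over probes they were 0 for day 2 with 2i and A83-01 against day 1, 0 for CHIR99021 and 2 for the full mixture against 4OHT. With no filter they were 8 for the full mixture against bFGF, 8 against 2i with A83-01, 3 against 4OHT and 7 for Vasa.

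At 1.5-fold, 4 members were apart for day 2 bFGF against day 1, 5 for day 2 with 2i and A83-01 against day 1, 5 for EGCs against day 10, 4 for PD325901, 2 for CHIR99021, 1 for 2i with A83-01, 3 for the full mixture against 4OHT and 4 for Prdm14. At 3-fold, they were 0 and 0 for the day 2 arrays against day 1, 2 for day 6 against day 3, 1 for day 10 against day 6, 1 for EGCs against day 10, 5 for PGCs against ESCs and 4 for EGCs against ESCs. Also at 3-fold they were 0 for PD325901, 0 for CHIR99021, 4 for A83-01, 2 for 4OHT, 2 for the full mixture against bFGF, 2 against 2i with A83-01 and 1 for Blimp-1. With the median of all genes taken off, an alternative chosen after seeing the data, they were 1 for day 10 against day 6, 2 for PD325901, 3 for 4OHT, 3 for the full mixture against 2i with A83-01 and 2 against 4OHT.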
